A study of Mus musculus with 6 samples.

Results

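Integrins are paired alpha and beta receptors in the plasma membrane that hold cells to the extracellular matrix, and the adaptors that gather on their cytoplasmic tails join them to actin and to kinases. Transcripts of 48 of these genes, 15 integrin subunits and 33 cytoplasmic adaptors, were compared between Nlk-KO and WT Neuro2a (N2a) cells, a mouse neuroblastoma line. The members were named genes, chosen with earlier results of these data known. Each was found in 1 row of the deposited table of 26657 loci. The rows of Itga1, Tgfb1i1 and Trip6 each merge the member with another gene, and the counts include them. In Nlk-KO cells 24 members were higher and 8 were lower, where 18.6% and 18.5% of all loci tested were, while 8 were not called and 8 were too low to be tested. The largest rises were those of Fblim1, an adaptor that binds filamin and kindlin, at 13.2 times its WT mean, of Itga2, a collagen receptor subunit, at 9.09 times, and of Itgb3, the beta chain of the vitronectin receptor, at 4.46 times. The largest fall was that of Itga3, a laminin receptor subunit, to 0.113 of its WT mean. Fblim1, Itga2 and Itga3 were high enough to be tested only through the genotype in which they were higher.

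Both groups were N2a cells grown in medium with serum, with 3 libraries labelled as biological replicates in each. The WT cells were isogenic controls, and the Nlk-KO cells carried mutations made in Nlk, the gene of Nemo-like kinase, by Cas9 nickase with paired guide RNAs. N2a cells are polyploid, so clones were classed as KO by loss of detectable Nlk protein, and several clones were kept. Polyadenylated RNA was sequenced in paired reads of 75 bases. Neither the labels nor the methods say which clone each KO library came from. The p-values therefore reflect the spread among these libraries alone, part of which may be technical, and effects of the knockout and of clonal growth cannot be told apart.

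Values are FPKM, fragments scaled by transcript length and by library size, and so are relative and not absolute. Their sums differed between libraries, from 2506293 to 8667701 FPKM. Factors that equalise the median ratio between libraries ran only from 0.992 to 1.01. The values were thus already close to a common median ratio and not to a common sum. In such bulk values fewer cells of a kind and less RNA per cell cannot be told apart. Nlk transcripts were 15.8, 16.6 and 16.1 FPKM in the WT libraries and 6.78, 7.01 and 6.83 in the Nlk-KO libraries, a log2 fold change of -1.22 (SE 0.0373, adjusted p = 1.36e-06). The groups did not overlap. Relative depth, read from the steps between low values, ran from 0.979 to 1.29 of the first WT library, and 11441 to 11608 loci reached 1 FPKM in each library. The test covered 12667 loci averaging 0.5 FPKM or more. At an adjusted p under 0.05, 37.1% of them were called in either direction. Of 12 sympathoadrenal markers 11 were tested, 4 were lower, 1 was higher and 6 were not called, with a median log2 fold change of -0.06. The lower ones included Th and Dbh, enzymes of catecholamine synthesis, at -3.09 and -2.90. Th, at 4.19 FPKM in WT and 0.415 in Nlk-KO cells, was high enough to be tested only through WT cells. Of 8 smooth muscle markers 4 were tested. Acta2 rose from 0.175 to 11.9 FPKM, so it was high enough to be tested only through Nlk-KO cells. Smtn rose by 0.30 on the log2 scale, and Tagln (0.831 and 0.859 FPKM) and Des (29.5 and 28.9 FPKM) were not called. Myocd was listed at 0 in every library. Of 8 fibroblast markers 6 were under 0.5 FPKM in every library, and the only one tested, Pdgfra, rose from 0.819 to 1.81 FPKM. Whether these differences have any part in the changes of the adhesion genes was not tested.

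Beside the background of 37.1%, 32 of the 40 tested members were called. The median log2 fold change of the tested members was 0.34, against -0.01 over all loci tested. The members were chosen with earlier results of these data known, so these shares describe the list and do not test it. Libraries of the 2 genotypes did not overlap for 37 tested members, whereas 51.0% of all loci were separated in this way (25.1% higher and 25.9% lower in KO cells). Changes past 2-fold were 7 rises and 2 falls among the members, where 1.72% of loci rose and 1.44% fell by as much. The rises include the locus that merges Tgfb1i1 with Slc5a2. Of the tested members, Itga2, Itga3, Fblim1 and Lims2 passed the filter on low values only through the genotype in which they were higher. Itga3 and Lims2 were the 2 falls past 2-fold, and Itga2 and Fblim1 were among the 7 rises. All 4 genes that passed in this way were also called without a filter. In a fit to each library set left after 1 library was removed, 30 of the 32 calls held in all 6 fits. The exceptions were Itgb5, called in 3 fits, and Evl, called in 1.

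**Figure D1:**
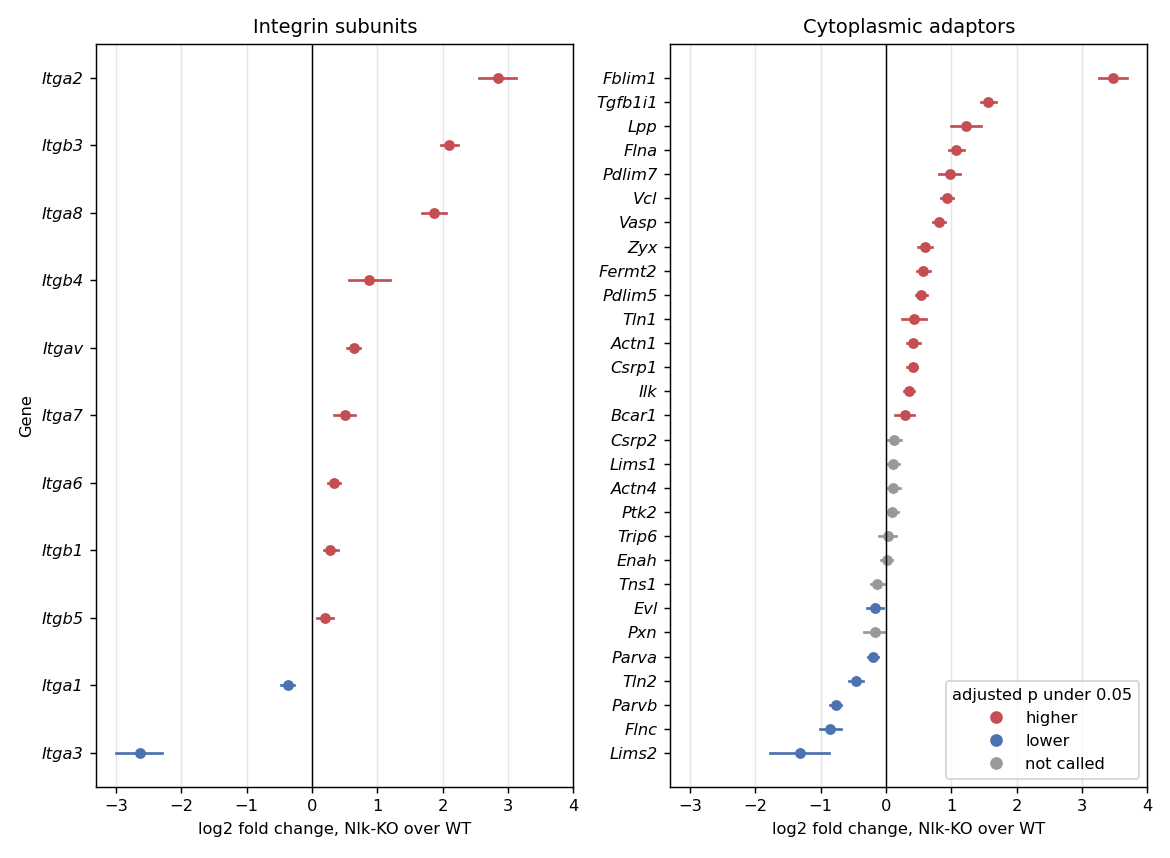
Log2 fold change, Nlk-KO over WT, of the 40 tested members, with integrin subunits on the left and cytoplasmic adaptors on the right; points are limma estimates from 3 against 3 libraries, lines are 95% intervals and colours give the call at an adjusted p under 0.05. Fblim1 lies farthest to the right at 3.48 and Itga3 farthest to the left at -2.64.

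An integrin heterodimer takes its ligand mostly from its alpha chain and its link to the cytoskeleton from its beta chain. Of the 15 subunits, 11 were tested, 9 were higher and 2 were lower, where 37.1% of all loci tested were called. The lower ones were Itga3 and the locus that merges Itga1 with Pelo. Every tested subunit separated the genotypes, where 51.0% of all loci tested did not overlap. On the FPKM scale the order of the levels in WT cells was Itgb1, Itga6, the Itga1 locus, Itgb5, Itgav, Itga7, Itgb3, Itga8, Itga3, Itgb4 and Itga2. The WT libraries of Itga7, Itgb3, Itga8 and Itga3 lay between 1.63 and 2.50 FPKM, and those of Itgb3 and Itga8 overlapped, so these neighbours in the order were not all separated by their spread. In Nlk-KO cells Itgb3 and Itga8 stood above Itga7, and Itga3 was last among the tested subunits.

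**Figure D2:**
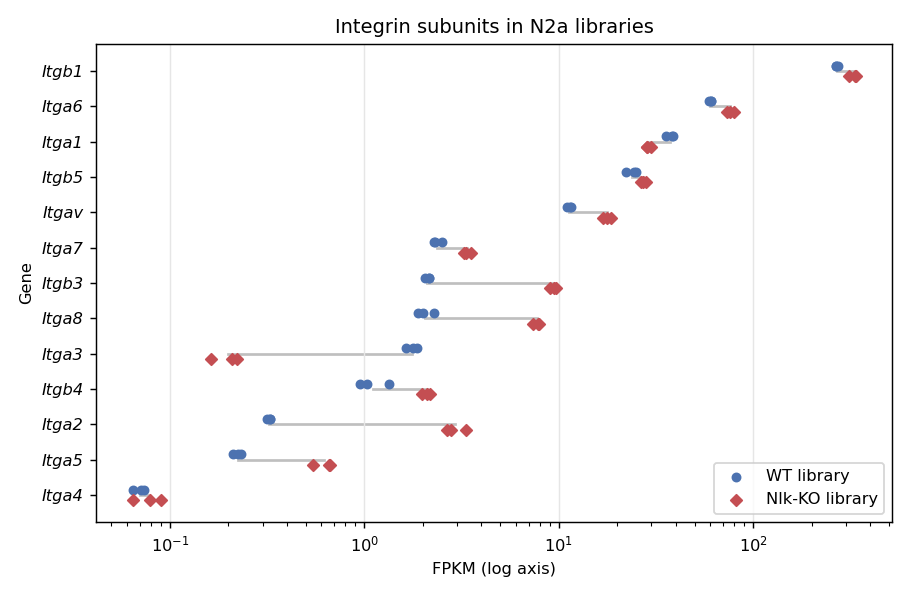
FPKM of the integrin subunits on a log axis, 1 circle per WT library and 1 diamond per Nlk-KO library, with a line joining the group means; Itga9 and Itgb8, with libraries at 0, are not drawn. Itgb1 is highest, at 266.5 to 339.9 FPKM, and the widest separations are those of Itga2, Itga3, Itgb3 and Itga8.

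Itgb1, the beta chain shared by most laminin, collagen and fibronectin receptors, had the highest level of all members. Its FPKM was 268.8, 266.5 and 273.1 in WT and 339.9, 312.4 and 333.4 in Nlk-KO libraries. The KO libraries all lay above the WT libraries, by 1.22 times in the mean (log2 fold change 0.28, SE 0.0453, adjusted p = 0.00271). Itgb3 (chr11:104607829-104670588, mm10), which pairs with alpha v to bind vitronectin and other RGD ligands, was at 2.14, 2.14 and 2.05 FPKM in WT and 9.42, 9.07 and 9.74 in Nlk-KO libraries. The lowest KO library was thus above the highest WT library by a wide margin (log2 fold change 2.10, SE 0.0516, adjusted p = 7.87e-07). Itgb4, the laminin receptor chain known from hemidesmosomes of epithelia, had 1.34, 1.03 and 0.946 FPKM in WT and 2.19, 2.10 and 1.98 in Nlk-KO libraries. It rose by 0.87 on the log2 scale (SE 0.133, adjusted p = 0.00229), with the spread in WT larger than in KO cells. Itgb5, another partner of alpha v, was 23.8 ± 1.53 FPKM (SD, n = 3) in WT and 27.3 ± 0.912 in Nlk-KO cells. Its rise of 0.20 on the log2 scale had an adjusted p of 0.0228. The call was lost when WT library 1, Nlk-KO library 1 or Nlk-KO library 3 was left out, with log2 fold changes of 0.22, 0.20 and 0.17 and an adjusted p of up to 0.0794. Itgb8 was detected in 1 KO library at 0.0331 FPKM and was 0 elsewhere.

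The laminin receptor subunits moved in different directions. Itga6, the most abundant alpha chain, was 60.9, 59.1 and 61.1 FPKM in WT and 79.8, 73.7 and 76.0 in Nlk-KO libraries, with no overlap. It rose by 0.34 on the log2 scale (SE 0.0383, adjusted p = 5.57e-04). Itga3 (chr11:95044481-95076714) was 1.87, 1.77 and 1.63 FPKM in WT and 0.208, 0.222 and 0.163 in Nlk-KO libraries. All KO libraries were far below the WT libraries, and the log2 fold change of -2.64 (SE 0.151, adjusted p = 2.3e-05) was the 46th lowest of all loci tested. Itga7, a laminin receptor chain best known from skeletal muscle, was 2.27, 2.32 and 2.50 FPKM in WT and 3.26, 3.34 and 3.56 in Nlk-KO libraries, and rose by 0.50 on the log2 scale (SE 0.0688, adjusted p = 0.00142).

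Itga8 and Itgav, which bind ligands with an RGD motif, were higher. Itga8 (chr2:12106578-12312315), whose dimer with beta 1 binds nephronectin and fibronectin, was 1.88, 2.01 and 2.29 FPKM in WT and 7.94, 7.42 and 7.82 in Nlk-KO libraries. The KO libraries were closely grouped and all above the WT libraries (3.75 times, log2 fold change 1.86, SE 0.0781, adjusted p = 6.12e-06). Itgav, the alpha v chain that pairs with beta 1, beta 3, beta 5 and beta 8, was 11.6, 11.0 and 11.4 FPKM in WT and 18.6, 16.9 and 17.7 in Nlk-KO libraries. It rose by 0.64 on the log2 scale (SE 0.0445, adjusted p = 5.83e-05), again without overlap. Itga5, the alpha chain of the classical fibronectin receptor, was below the filter at 0.223 ± 0.0103 FPKM (SD, n = 3) in WT and 0.622 ± 0.0696 in Nlk-KO cells. When no filter was applied it was higher by 1.16 on the log2 scale (adjusted p = 0.00206).

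The collagen receptor chains Itga1 and Itga2 are neighbours on chromosome 13. Itga2 (chr13:114833166-114932114) was 0.327, 0.315 and 0.326 FPKM in WT and 3.35, 2.78 and 2.66 in Nlk-KO libraries. The WT libraries were all under 0.5 FPKM, the mean asked for by the filter, and the KO libraries were all above them (log2 fold change 2.84, SE 0.122, adjusted p = 6.63e-06). The locus that holds Itga1 fell by 0.37 on the log2 scale (SE 0.0412, adjusted p = 5.29e-04), from 37.5 ± 1.58 to 29.0 ± 0.783 FPKM (SD, n = 3). The deposited table merges Itga1 with Pelo, a ribosome rescue factor, in this row, so the value cannot be assigned to either gene. Itga4 and Itga9 were no higher than 0.0899 and 0.0141 FPKM in any library.

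Because FPKM is scaled by length, levels within a family can be summed, and each member can be given as its share of the family's summed FPKM in each library. The beta chains together were 296.5 ± 1.73 FPKM (SD, n = 3) in WT and 367.4 ± 15.2 in Nlk-KO cells. Itgb1 made up 90.9% ± 0.618 and 89.4% ± 0.301 of this sum, whereas the share of Itgb3 was 0.712% ± 0.022 in WT and 2.56% ± 0.0656 in KO cells. Itgb1 was 127.7 times Itgb3 in WT libraries and 34.9 times in KO libraries. Leaving out the merged Itga1 locus, the alpha chains summed to 78.5 ± 1.45 and 109.2 ± 4.30 FPKM. Itga6 held 76.9% of this in WT and 70.1% in Nlk-KO cells, Itga8 2.62% and 7.08%, and Itga2 0.411% and 2.68%. Across 10 families, 35 shares and 10 sums were tested by a two-sided exact permutation test, of which 38 values reached 0.1, the smallest p that 3 against 3 libraries allow (0.118 after Benjamini-Hochberg adjustment), and so none could pass 0.05. With the Itga1 locus counted, the share of Itga6 was instead higher in Nlk-KO cells by 3.33 percentage points, where it had dropped by 6.82 without it.

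**Figure D3:**
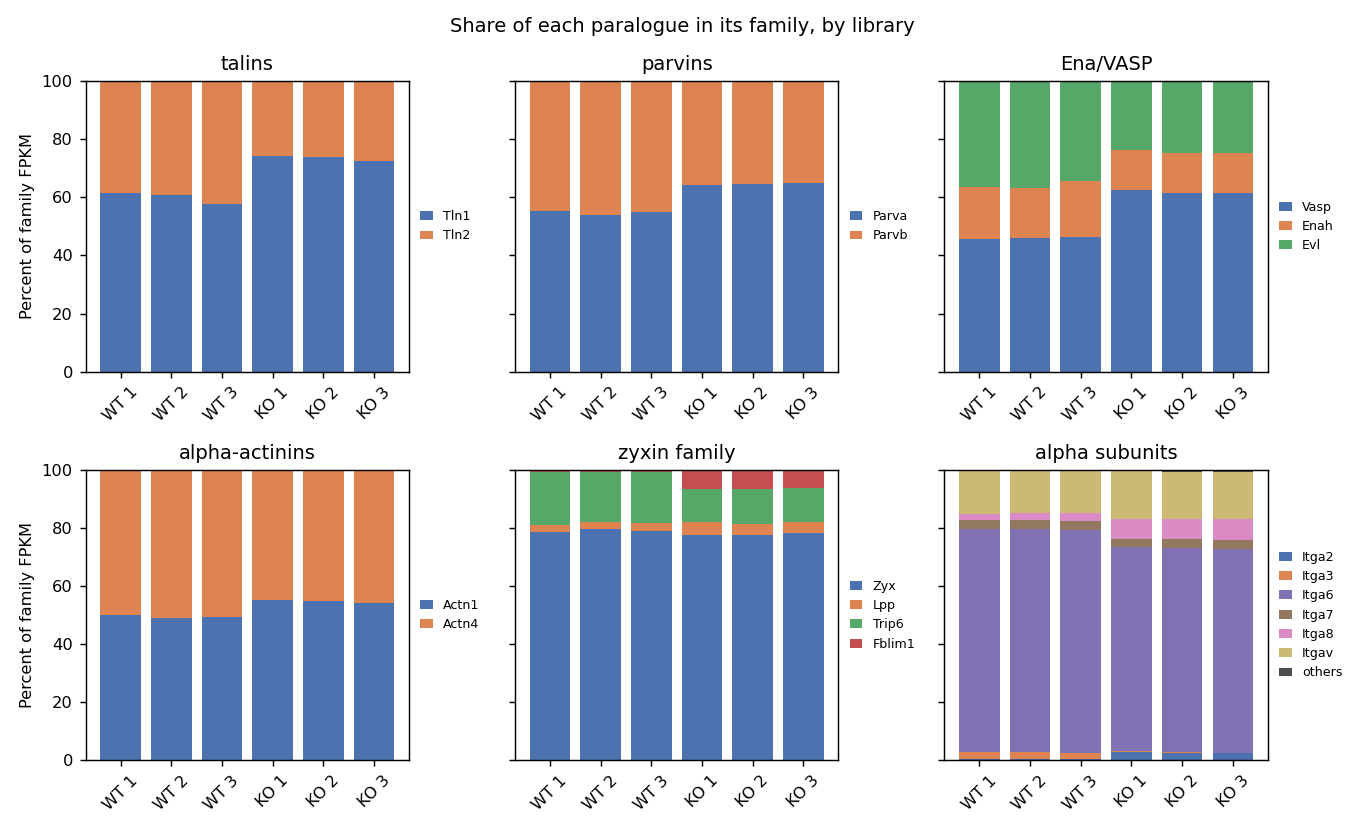
Stacked bars give the percent of each family's summed FPKM held by each paralogue in the 6 libraries, for talins, parvins, Ena/VASP proteins, alpha-actinins, the zyxin family and alpha subunits without the merged Itga1 locus; subunits under 1% in every library are pooled as others. Tln1, Vasp and Actn1 take larger shares in every Nlk-KO library than in any WT library. The zyxin family includes the locus that merges Trip6 with Slc12a9.

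Of the 33 cytoplasmic adaptors, 29 were tested, 15 were higher, 6 were lower and 8 were not called, with a median log2 fold change of 0.29. Over all loci tested 18.6% were higher and 18.5% lower, so the share of lower adaptors was near that of all loci. The 6 lower members were Lims2, Flnc, Parvb, Tln2, Parva and Evl. Those called higher include the locus that merges Tgfb1i1 with Slc5a2. The members not called were Pxn, Tns1, Enah, Trip6, Ptk2, Lims1, Actn4 and Csrp2, and those below the filter were Tns3, Pdlim1, Fhl1 and Fhl2, none above 0.0807 FPKM in any library.

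**Figure D4:**
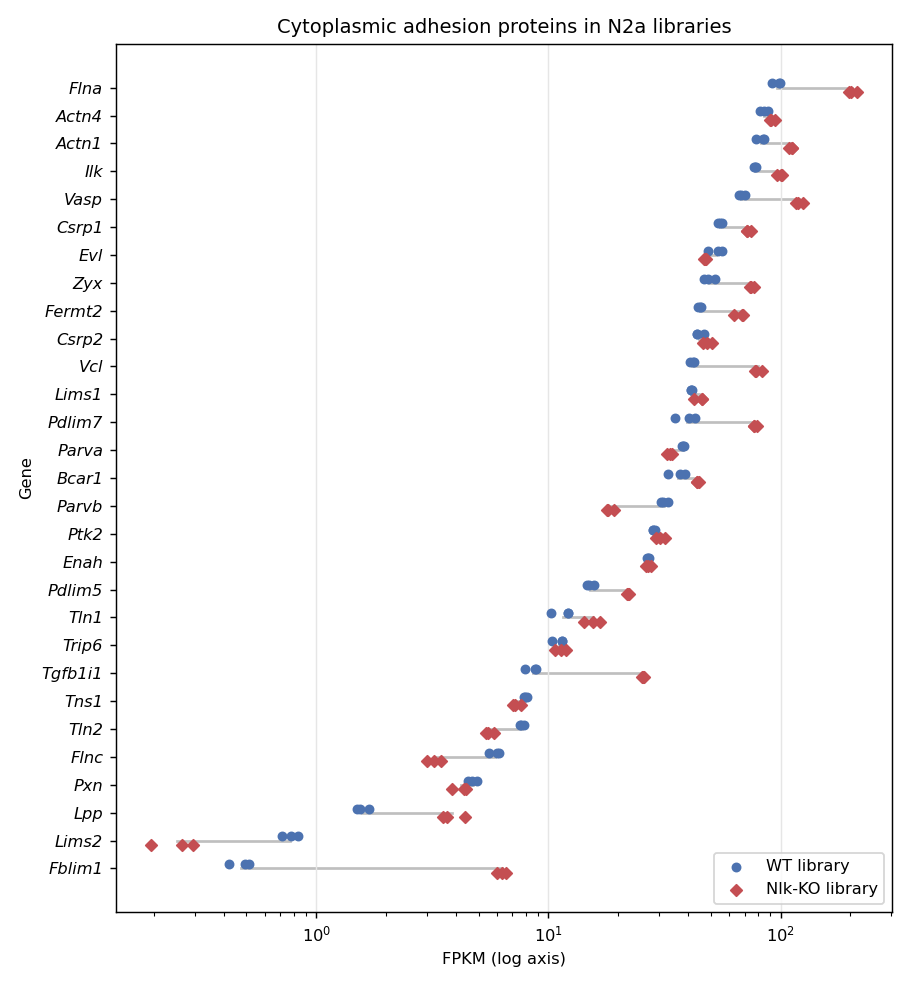
FPKM of the 29 tested cytoplasmic adaptors on a log axis, 1 circle per WT library and 1 diamond per Nlk-KO library, with a line joining the group means and genes ordered by their WT mean. Flna is highest at 91.8 to 213.8 FPKM, Fblim1 shows the widest rise, and the libraries of Enah and Trip6 overlap.

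Promoter windows of 300 bases, 250 before and 50 after the transcription start (RefSeq, GRCm38.p6), were found for 37 of the 48 members, with 50 windows in all. They were searched on both strands for the CArG box bound by serum response factor, for TGANTCA, and for GGAATG, the TEAD site. TGANTCA is wider than the AP-1 site, TGAGTCA or TGACTCA, because its middle base is free. Serum response factor, AP-1 and TEAD factors are known to act on many cytoskeletal genes. A CArG box was present in 6 of 50 member windows (12.0%) and in 1.63% of 32851 windows of all genes. TGANTCA was in 10.0% and 7.81%, and GGAATG in 22.0% and 14.7%, respectively. The 5 members with a CArG box were Vcl and Fermt2, which were higher, Trip6, which was not called, and Fhl1 and Fhl2, which were below the filter. TGANTCA was found in Fblim1 and Zyx, which were higher, Itga3, which had the largest fall, Actn4, not called, and Itga9, below the filter. The letters were TGAGTCA in Fblim1 and Zyx and TGACTCA in Itga9. Itga3 and Actn4 held TGAATCA, which is not the AP-1 site. Of 9 members with GGAATG, 5 were higher, 2 were lower (Evl and Flnc) and 2 were not called. These matches are letters in a window and were not measured as bound sites.

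The windows of Vcl (chr14:20929148-20929447, + strand) and Fermt2 (chr14:45530016-45530315, - strand) are shown because both hold a CArG box and both transcripts rose. Fblim1 (chr4:141606003-141606302, - strand) is shown as the member with the largest rise, and Trip6 (chr5:137314192-137314491, - strand) as a member with a CArG box that was not called. Capitals mark the CArG box in Vcl, Fermt2 and Trip6, TGANTCA in Fblim1, and GGAATG or its complement CATTCC in Vcl, Fblim1 and Trip6.
Vcl promoter: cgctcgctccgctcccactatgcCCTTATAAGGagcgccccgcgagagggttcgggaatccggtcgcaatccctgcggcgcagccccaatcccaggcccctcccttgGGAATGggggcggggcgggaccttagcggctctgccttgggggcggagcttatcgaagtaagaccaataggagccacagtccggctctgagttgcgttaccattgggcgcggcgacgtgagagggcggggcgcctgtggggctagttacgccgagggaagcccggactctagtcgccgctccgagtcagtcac
Fermt2 promoter: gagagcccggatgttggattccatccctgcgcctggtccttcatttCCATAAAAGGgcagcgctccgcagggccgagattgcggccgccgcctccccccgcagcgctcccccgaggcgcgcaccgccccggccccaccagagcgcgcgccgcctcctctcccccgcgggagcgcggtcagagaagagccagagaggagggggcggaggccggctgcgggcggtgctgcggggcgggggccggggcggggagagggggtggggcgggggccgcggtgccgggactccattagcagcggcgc
Fblim1 promoter: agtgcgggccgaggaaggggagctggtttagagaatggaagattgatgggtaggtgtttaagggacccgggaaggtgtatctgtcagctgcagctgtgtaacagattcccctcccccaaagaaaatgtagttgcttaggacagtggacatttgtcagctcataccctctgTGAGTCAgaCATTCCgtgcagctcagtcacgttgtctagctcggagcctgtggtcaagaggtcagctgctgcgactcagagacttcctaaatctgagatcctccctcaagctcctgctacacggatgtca
Trip6 promoter: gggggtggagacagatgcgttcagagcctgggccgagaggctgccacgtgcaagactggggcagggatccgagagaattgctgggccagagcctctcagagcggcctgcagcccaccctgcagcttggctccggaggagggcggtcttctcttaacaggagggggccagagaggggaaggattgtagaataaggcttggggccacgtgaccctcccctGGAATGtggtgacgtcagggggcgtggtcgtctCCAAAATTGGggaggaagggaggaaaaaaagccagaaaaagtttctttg
The CArG box lies 227 bases before the start in Vcl and 204 in Fermt2, and 1 base after it in Trip6. In Fblim1 TGANTCA lies 80 bases and CATTCC 71 bases before the start.

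Talins and kindlins bind the beta tail and switch integrins to the active state. Fermt2, kindlin-2, was 45.1, 45.6 and 44.0 FPKM in WT and 68.9, 63.0 and 68.4 in Nlk-KO libraries. Every KO library was above every WT library (log2 fold change 0.57, SE 0.0422, adjusted p = 7.51e-05). The talins diverged. Tln1, the widely expressed talin, rose by 0.43 on the log2 scale (SE 0.0807, adjusted p = 0.00589), from 11.5 ± 1.02 to 15.5 ± 1.23 FPKM (SD, n = 3), and Tln2, the paralogue prominent in brain and muscle, fell by 0.46 (SE 0.0462, adjusted p = 3.22e-04), from 7.67 ± 0.132 to 5.55 ± 0.223 FPKM. The ratio of Tln1 to Tln2 was 1.58, 1.55 and 1.36 in WT and 2.88, 2.83 and 2.65 in Nlk-KO libraries, without overlap, while the talin sum was 19.2 ± 1.11 and 21.0 ± 1.45 FPKM (exact permutation p = 0.3).

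Integrin-linked kinase, PINCH and parvin form a complex that is recruited to the beta tail and binds actin. Of its 5 genes 1 was higher, 3 were lower and 1 was not called, where 18.6% and 18.5% of all loci tested were higher and lower. Ilk, the scaffold of the complex, was 78.6, 77.9 and 76.9 FPKM in WT and 101.3, 96.5 and 100.8 in Nlk-KO libraries, a rise of 0.35 on the log2 scale (SE 0.0329, adjusted p = 2.24e-04) with no overlap. Parvb, beta-parvin, was 30.6, 32.6 and 31.1 FPKM in WT and 19.1, 17.9 and 18.1 in Nlk-KO libraries. All KO libraries were lower (log2 fold change -0.77, SE 0.0400, adjusted p = 1.53e-05). Parva, alpha-parvin, fell by 0.19 (SE 0.0314, adjusted p = 0.0031), and the parvin sum was 69.5 ± 1.29 FPKM in WT and 51.7 ± 1.43 in Nlk-KO cells. Lims2, PINCH-2, was 0.774, 0.832 and 0.708 FPKM in WT and 0.194, 0.265 and 0.294 in Nlk-KO libraries. It fell by 1.32 (SE 0.192, adjusted p = 0.0018), although PINCH transcripts were mostly Lims1, PINCH-1, at 98.2% and 99.4% of the PINCH sum. Lims1 was 41.3 ± 0.353 FPKM in WT and 44.6 ± 1.94 in Nlk-KO cells (log2 fold change 0.11, 95% interval 0.02 to 0.20, adjusted p = 0.0636).

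Focal adhesion kinase, paxillin-type LIM proteins and p130Cas relay adhesion to small GTPases. Tgfb1i1, which encodes the paxillin relative Hic-5, was 8.77, 8.88 and 7.96 FPKM in WT and 25.4, 25.5 and 25.7 in Nlk-KO libraries. The KO libraries were nearly equal and 2.99 times the WT mean (log2 fold change 1.57, SE 0.0478, adjusted p = 1.36e-06). The table merges Tgfb1i1 with the glucose transporter gene Slc5a2 in 1 locus (chr7:128246811-128298239), so the rise belongs to the pair. Bcar1, which encodes p130Cas, was 36.9, 38.8 and 32.7 FPKM in WT and 43.8, 44.6 and 43.8 in Nlk-KO libraries, and rose by 0.29 (SE 0.0612, adjusted p = 0.00957) without overlap. Pxn, paxillin itself, was 4.72 ± 0.215 FPKM (SD, n = 3) in WT and 4.19 ± 0.304 in Nlk-KO cells, and its difference of -0.17 on the log2 scale (95% interval -0.33 to -0.01) did not pass the adjusted threshold (adjusted p = 0.0982). Ptk2, focal adhesion kinase, was 28.4 ± 0.427 and 30.4 ± 1.31 FPKM, with a difference of 0.10 (95% interval 0.01 to 0.19, adjusted p = 0.0905).

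The proteins that tie the complex to actin filaments included the most abundant adaptors. Flna, filamin A, which crosslinks actin and binds beta tails, was 98.5, 99.4 and 91.8 FPKM in WT and 213.8, 198.1 and 200.3 in Nlk-KO libraries. Its mean was 2.11 times higher in KO cells, with every KO library above every WT library (log2 fold change 1.08, SE 0.0475, adjusted p = 7.27e-06). Flnc, the filamin of striated muscle, was 6.13, 5.99 and 5.56 FPKM in WT and 3.44, 3.22 and 3.00 in Nlk-KO libraries. It fell by 0.85 (SE 0.0678, adjusted p = 1.05e-04), so that the ratio of Flna to Flnc averaged 16.4 ± 0.267 in WT and 63.5 ± 2.87 in KO libraries. Vcl (chr14:20929388-21052490), vinculin, which joins stretched talin to actin, was 42.0, 42.3 and 40.9 FPKM in WT and 83.1, 77.6 and 78.4 in Nlk-KO libraries. The groups were far apart (1.91 times, log2 fold change 0.93, SE 0.0370, adjusted p = 4.59e-06).

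Alpha-actinins crosslink actin and bind beta tails and vinculin. Actn1 rose by 0.42 on the log2 scale (SE 0.0397, adjusted p = 2.28e-04), from 82.7 ± 3.52 to 111.0 ± 1.66 FPKM (SD, n = 3). Actn4 was 84.9 ± 3.65 and 91.6 ± 2.42 FPKM (0.11, 95% interval 0.01 to 0.21, adjusted p = 0.0762), and the share of Actn1 in the sum was 49.4% in WT and 54.8% in KO cells. Tns1, the actin-binding tensin 1, was 7.94 ± 0.142 and 7.27 ± 0.297 FPKM (-0.13, 95% interval -0.23 to -0.02, adjusted p = 0.0653).

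Proteins of the zyxin family gather at adhesions under tension and recruit Ena/VASP proteins, which speed actin filament elongation. Fblim1 (chr4:141576061-141606052), migfilin, was 0.421, 0.513 and 0.491 FPKM in WT and 6.29, 6.55 and 6.03 in Nlk-KO libraries. On the log2 scale the gap between the groups was the widest of all members, and its log2 fold change of 3.48 (SE 0.0915, adjusted p = 1.01e-06) was the 19th highest of all loci tested. Lpp was 1.49, 1.54 and 1.69 FPKM in WT and 4.35, 3.67 and 3.50 in Nlk-KO libraries, and rose by 1.23 (SE 0.0984, adjusted p = 1.07e-04) without overlap. Zyx, zyxin itself, was 48.8, 52.4 and 46.7 FPKM in WT and 73.6, 76.7 and 74.4 in Nlk-KO libraries, a rise of 0.60 (SE 0.0467, adjusted p = 9.37e-05). Trip6, whose locus is merged with that of the transporter gene Slc12a9, overlapped between genotypes at 11.1 ± 0.592 and 11.3 ± 0.586 FPKM (0.03, 95% interval -0.10 to 0.16, adjusted p = 0.716). Zyxin made up 79.0% of the family in WT and 77.8% in Nlk-KO cells, and the share of Fblim1 was 0.761% and 6.53%. The family sum behind these shares includes the merged Trip6 locus, at 17.7% in WT and 11.7% in Nlk-KO cells.

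The Ena/VASP paralogues differed from one another. Vasp was 67.3, 70.1 and 66.1 FPKM in WT and 124.8, 118.4 and 116.0 in Nlk-KO libraries. All KO libraries were well above the WT libraries (1.77 times, log2 fold change 0.82, SE 0.0407, adjusted p = 1.26e-05). Enah, which encodes Mena, overlapped at 26.8 ± 0.339 and 27.0 ± 0.743 FPKM (SD, n = 3), with a difference of 0.01 and a 95% interval of -0.07 to 0.09 (adjusted p = 0.886). Evl was 52.9 ± 3.74 FPKM in WT and 47.2 ± 0.519 in Nlk-KO cells, and the log2 difference of -0.16 (adjusted p = 0.0451) was called in only 1 of the 6 fits without 1 library, with an adjusted p of up to 0.134. The share of Vasp in the family was 46.0% ± 0.515 in WT and 61.7% ± 0.614 in KO cells, and that of Evl 35.8% ± 1.30 and 24.4% ± 0.585.

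Of the LIM proteins that dock on alpha-actinin and actin stress fibres, 3 of 7 were higher, 1 was not called and 3 were below the filter. Over all loci tested 18.6% were higher. Pdlim7, enigma, a PDZ-LIM protein, was 40.2, 42.9 and 35.2 FPKM in WT and 76.6, 79.3 and 77.1 in Nlk-KO libraries. Every KO library was above every WT library (1.97 times, log2 fold change 0.98, SE 0.0687, adjusted p = 5.93e-05). Pdlim5 was 15.7, 15.0 and 14.7 FPKM in WT and 22.3, 22.1 and 21.9 in Nlk-KO libraries, a rise of 0.54 (SE 0.0367, adjusted p = 5.07e-05). Csrp1, which binds alpha-actinin and zyxin, rose by 0.41 (SE 0.0316, adjusted p = 9.37e-05), from 54.9 ± 0.953 to 72.9 ± 1.47 FPKM, while Csrp2 overlapped at 44.7 ± 1.81 and 48.5 ± 2.23 FPKM (0.12, 95% interval 0.01 to 0.23, adjusted p = 0.0862).

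Further genes of the pathway were taken from lists, also chosen with earlier results of these data known. Of 31 signalling partners of adhesions, 29 were tested, 12 were higher, 3 lower and 14 not called, with a median log2 fold change of 0.10, against 18.6% higher and 18.5% lower over all loci tested. Rsu1, which binds PINCH-1 in the ILK complex, was 50.3, 55.5 and 54.1 FPKM in WT and 109.7, 109.2 and 109.1 in Nlk-KO libraries, a rise of 1.04 (SE 0.0419, adjusted p = 5.02e-06) without overlap. Nck2, a PINCH-binding adaptor, Peak1, a pseudokinase of adhesions, and the kinase Src rose by 0.58, 0.56 and 0.52. The lower partners were Fyn, a kinase of the Src family, Git2 and Ptpn11, at -0.37, -0.27 and -0.14. Of the 15 called partners in all, leaving out WT library 1 left 9 called. Among 19 paralogues of the member adaptors 5 were tested, 3 were higher and 2 were not called, where 18.6% of all loci tested were higher. Fhl3 rose by 0.90 and Pdlim3 by 0.47. Of 17 tested LIM and actin-binding proteins outside the members, 8 were higher and 2 lower, beside the same background of 18.6% and 18.5%. Synpo2, Lima1, Nexn and Cald1, which bind actin, rose by 1.33, 1.27, 1.23 and 1.11, and Ablim1 and Limch1 were the lower ones at -0.99 and -0.75. None of the 11 integrin subunits outside the members reached the filter.

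Genes of integrin ligands, on a list chosen with earlier results of these data known, were read beside their receptors. Of 31 ligand genes 15 were tested, 10 were higher and 5 were not called, with a median log2 fold change of 0.37, where 18.6% of all loci tested were higher. Npnt, which encodes nephronectin, the ligand of the alpha 8 beta 1 dimer, was 2.34, 2.40 and 2.28 FPKM in WT and 12.0, 10.6 and 12.3 in Nlk-KO libraries. It rose by 2.26 (SE 0.0645, adjusted p = 1.08e-06), with no overlap, as did Itga8 above. Cyr61, a matricellular ligand of alpha v integrins, Nid1, a basement membrane linker, and the laminin chain gene Lama4 rose by 1.59, 0.96 and 0.94. Nid1, at 0.399 FPKM in WT and 0.871 in Nlk-KO cells, was high enough to be tested only through Nlk-KO cells. The higher ligands also include the locus that merges Lamb2 with Usp19. Fn1, fibronectin, overlapped at 60.4 ± 2.04 and 61.3 ± 5.48 FPKM (SD, n = 3), a difference of 0.02 with a 95% interval of -0.13 to 0.17 (adjusted p = 0.863).

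Several limits apply to the named members. Itga6, Itgav and Itga8 lie on chromosome 2, whose tested loci had a median log2 fold change of 0.19, and Itga7, Lims1 and Csrp2 on chromosome 10, with a median of -0.20. The signalling partners Src and Rsu1 also lie on chromosome 2, Rsu1 (chr2:13076966-13271415) close to Itga8. With each chromosome's median removed, the call of Evl was lost, Lims1 (0.31, adjusted p = 9.41e-04), Csrp2 (0.32, adjusted p = 0.00198) and Tns1 (-0.16, adjusted p = 0.0327) became called, and the rise of Itga6 was 0.15. Scaling all libraries to an equal FPKM sum over loci with a gene symbol ended 13 of the 32 calls, those of Itga1, Itga6, Itga7, Itgb1, Itgb5, Actn1, Bcar1, Csrp1, Evl, Ilk, Parva, Tln1 and Tln2. All 13 kept their direction, with log2 fold changes of 0.35 for Itgb1, 0.40 for Itga6, 0.42 for Ilk and 0.49 for Actn1 under that scaling. Its factors differed within groups, at 0.939, 1.16 and 0.879 in WT and 0.861, 1.13 and 1.12 in Nlk-KO libraries. Scaling by the median ratio ended none of the 32 calls and added those of Lims1 and Actn4. Whether the libraries kept strand is not given in the sources used here, so reads of Itga7, Vcl, Tln1, Zyx, Ilk, Lims2, Actn4 and Evl cannot be separated from those of exonic neighbours on the opposite strand. Nlk-KO library 2 stood apart in S100b, a Schwann cell marker, at 0.558 FPKM against 0.0199 and 0.0302 in the other KO libraries, and without it Evl was the only member whose call was lost.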

How the data were processed

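The deposited table gives FPKM per locus, made by the authors with TopHat2 2.1.0, Cufflinks 2.2.1, Cuffnorm and Cuffdiff on mm10, per the submitters' processing notes. Its columns of group averages, fold changes, p-values and FDR from the authors' own test were not used, nor was a second table of loci passing that test. No library column was left unmapped (0). FPKM was taken as log2(FPKM + 0.1), and fold changes are on this scale, which understates changes of low genes. Loci averaging 0.5 FPKM or more (12667 of 26657) were fitted with limma 3.58.1 in R 4.3.3 with a trended prior, and p-values were two-sided and Benjamini-Hochberg adjusted over these loci with a threshold of 0.05. The fit was tested on simulated data. For a repeated symbol the row with the highest mean was kept. Read depth is not given as counts, so no counting interval could be made.

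The members and gene lists were chosen with earlier results of these data known. Per-library values are given for members past the threshold with a log2 change of at least 0.5 in size or with the highest mean of their role, and up to 4 called genes with the largest change are named from each list. Every member is accounted for. Some list genes are not reported here. Fn1, S100b, Myocd, Tagln, Des, Ablim1, Limch1, Fyn, Git2 and Ptpn11 fall outside this rule and were chosen after their values were seen. Alternatives were the pseudocount (0.01 and 1), the filter (none, 1 and 5 FPKM), scaling, chromosome medians, a constant prior, a 1.2-fold minimum, summed rows, a replicate block and leaving out each library. Of the marker lists, those of Schwann cells, leukocytes, endothelium and epithelium had 2, 1, 1 and 1 tested genes, of which Erbb3 (-0.92) and Pecam1 (-0.60) were lower.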

Additional observations from a re-analysis of the deposited data

How the results depend on the processing

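Of the 32 called members, 19 kept their direction and side of the threshold in every setting that tested them. Scaling by the median ratio removed no call. Scaling each library to the same sum over loci with a symbol removed 13 calls, and a tested change of more than 1.2-fold removed 10. Under the former, 568 loci were higher and 355 lower, with 5 integrins higher, 1 integrin lower, 3 adaptors lower, and 3 signalling partners, 1 adaptor paralogue, 6 LIM or actin-binding proteins and 6 ligands called. Under the latter, 618 loci were higher and 451 lower, with 5 integrins higher, 1 lower, and 4 partners, 6 LIM or actin-binding proteins and 6 ligands called. A minimum of 5 FPKM left 5 integrins higher, 1 lower and 6 ligands called, a minimum of 1 FPKM left 1 integrin lower, and without a filter 1 outside integrin was called. Without 1 library, called signalling partners numbered 9 to 15.

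With the Itga1 and Pelo locus counted, a setting added after the data were seen, the share of Itga6 changed by 3.33 and that of Itga8 by 3.81 percentage points. The uncalled Enah turned to -0.03 with chromosome medians removed, and ranged from -0.01 to 0.03 without 1 library, as Trip6 did from -0.02 to 0.07. Replicate numbers did not pair the libraries: deviations of same-numbered libraries correlated at 0.0374, 0.0599 and -0.132. With the replicate block 2065 loci were higher and 1973 lower, and the call of Itgb5 was lost. Depth ran from 0.979 to 1.29 of the first WT library, and members under 0.5 FPKM were not tested.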
